A study of Homo sapiens with 8 samples.

Results

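The 55 genes described here encode proteins that make ribosomes in the nucleolus. They were taken by symbol from a list of RNA polymerase I cofactors, nucleolar scaffold proteins, small nucleolar RNA-protein (snoRNP) core proteins and assembly factors of both ribosomal subunits. All 55 had a row with a mean of at least 1 RPKM, out of 14732 genes tested and 63129 rows deposited. A second row of BOP1 and of DKC1 on alternative sequence was at 0 in every library and was not used.

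LP-1, a human multiple myeloma cell line, was treated for 6 hr with the CBP/EP300 bromodomain inhibitor SGC-CBP30 at 2.5 µM, the BET bromodomain inhibitor CPI203 at 250 nM, or DMSO, the solvent. The 8 RNA-seq libraries form 4 groups of 2. Controls were assigned by the naming series of the libraries, SL for SGC-CBP30 and CM for CPI203, and these are called the SGC-CBP30 controls and the CPI203 controls. The study describes the 2 libraries of a group as biological replicates, but neither it nor the labels say that they came from separate cultures, so p-values measure only the spread between these libraries. Values are RPKM, read numbers divided by gene length and by library size, which allow levels of different genes to be compared per length.

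Depth, estimated from the steps between low RPKM values, was 34400000 and 34100000 reads for the SGC-CBP30 controls, 50200000 and 46800000 with SGC-CBP30, 28900000 and 26600000 for the CPI203 controls and 26000000 and 29700000 with CPI203. The SGC-CBP30 libraries were thus the deepest. All 8 plasma cell markers examined were present in every library, at 19.5 to 1920 RPKM, and 14 markers of other lineages were at 0 to 3.55 RPKM. In bulk RNA, fewer cells of a kind and less RNA per cell cannot be told apart.

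A ribosome is assembled from ribosomal RNA (rRNA), most of which RNA polymerase I transcribes as a single long precursor in the nucleolus. Box C/D snoRNPs methylate that precursor, box H/ACA snoRNPs convert uridines in it to pseudouridine, and large sets of assembly factors fold, cut and package it into a small and a large subunit. Plasma cells and myeloma cells secrete large amounts of antibody and depend on a high rate of protein synthesis. Many ribosome biogenesis genes are textbook targets of MYC, which binds the E-box hexamer CACGTG together with its partner MAX.

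The E-box lay close to the start of transcription in many of these genes. RefSeq promoter windows (GRCh38.p14, 250 bases before to 50 bases after the start of transcription) were matched by symbol for 47 of the 55 genes. The windows of 17 of them, 36.2%, held CACGTG, compared with 25.8% of 97 windows of other ribosome biogenesis genes, 4.76% of 63 of cytosolic ribosomal protein genes, 10.7% of 8419 of genes tested here and 7.43% of all 27305 windows. CACGTG reads the same on both strands. In 16 of the 17 genes it began within 50 bases of the start, the exception being EBNA1BP2 at -237; within that distance it was found in 34% of the members, 19.6% of the other ribosome biogenesis genes, 4.3% of the genes tested and 2.87% of all windows. Shown here are 5 promoters that hold it and that of NOP16, which does not, each from 100 bases before the start through the first 30 bases transcribed, with CACGTG in capitals. WDR43 lies at chr2:28894567-28894696 (plus strand), MRTO4 at chr1:19251705-19251834 (plus strand), UTP20 at chr12:101280005-101280134 (plus strand), NAT10 at chr11:34105529-34105658 (plus strand), FBL at chr19:39846350-39846479 (minus strand) and NOP16 at chr5:176388569-176388698 (minus strand).
WDR43: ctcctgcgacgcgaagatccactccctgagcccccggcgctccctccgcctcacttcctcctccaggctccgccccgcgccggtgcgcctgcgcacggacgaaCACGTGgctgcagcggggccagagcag
MRTO4: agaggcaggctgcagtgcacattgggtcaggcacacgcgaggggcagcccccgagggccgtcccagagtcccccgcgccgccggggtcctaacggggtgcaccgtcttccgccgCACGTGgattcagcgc
UTP20: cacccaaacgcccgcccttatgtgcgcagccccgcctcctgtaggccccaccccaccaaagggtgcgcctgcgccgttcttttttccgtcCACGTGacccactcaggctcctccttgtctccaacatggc
NAT10: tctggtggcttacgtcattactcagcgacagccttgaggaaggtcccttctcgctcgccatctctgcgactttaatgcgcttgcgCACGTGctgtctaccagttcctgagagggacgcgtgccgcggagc
FBL: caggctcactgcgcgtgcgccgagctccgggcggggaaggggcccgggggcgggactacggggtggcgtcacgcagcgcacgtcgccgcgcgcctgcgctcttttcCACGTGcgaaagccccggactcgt
NOP16: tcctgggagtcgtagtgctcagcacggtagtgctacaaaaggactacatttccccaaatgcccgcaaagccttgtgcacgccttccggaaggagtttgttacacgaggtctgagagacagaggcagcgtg
With the start site counted as 0, the hexamer begins at 3 in WDR43, at 14 in MRTO4, at -10 in UTP20, at -15 in NAT10 and at 6 in FBL.

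Other short motifs were also sought in these windows. CCGGAAG, an ETS-type site, was in 34% of the members' windows, 42.3% of those of other ribosome biogenesis genes and 33.3% of those of ribosomal protein genes, compared with 21.3% of the windows of genes tested. GGGCGG, a GC box, was in 68.1% of the members' windows and 71.7% of those of genes tested, and TATAAA was in 2.13% and 4.73%. Each of these was sought on both strands, and a match is a description of the sequence only.

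The RNA of nearly the whole list was lower with CPI203. At an adjusted p under 0.05 (limma on log2(RPKM + 0.1), Benjamini-Hochberg over all genes tested), 54 of the 55 genes fell and none rose, whereas 33.1% of all genes tested fell and 31.1% rose. With a change of at least 1.5-fold also required, 41 fell, or 74.5% of the list, and none rose, beside 14.4% and 13.4% of all genes tested. The median log2 fold change was -0.93, that is 0.526 of the control level, compared with -0.01 over all genes tested. The values ranged from -2.45 for NOP16 to 0.02 for UBTF. In 54 genes both CPI203 libraries lay below both CPI203 controls and in none above them, beside 41.7% and 39.2% of all genes tested. Summed over the list, RPKM fell from 4948 ± 48.8 in the CPI203 controls to 3051 ± 24.7 with CPI203 (mean ± SD, n = 2 each), or 0.617 of the control.

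SGC-CBP30 gave small changes in both directions. At an adjusted p under 0.05, 11 genes fell, 7 rose and 37 did not pass, beside 14.8% of all genes tested that fell and 25.6% that rose. None reached 1.5-fold in either direction, which 3.79% of all genes tested did downward and 3.47% upward. The gene at the median was at 0.999 of its control level (1.05 over all genes tested), and on the log2 scale the range was -0.28 for TCOF1 to 0.35 for UTP15. Both SGC-CBP30 libraries lay below both controls in 16 genes, above them in 21, and overlapped them in 18, where 27.2% of all genes tested lay below and 45.9% above. Summed RPKM was 5042 ± 55.4 in the SGC-CBP30 controls and 4921 ± 116 with SGC-CBP30, or 0.976 of the control, and the groups met at 5003 RPKM. These counts depended on single libraries: the 11 became 7 without replicate 1 and 4 without replicate 2 of the DMSO (SL series), and 4 without SGC-CBP30 replicate 2, while the 7 became 4 without SGC-CBP30 replicate 1. Against all 4 DMSO libraries, 2 fell and 1 rose, and with the replicate number as a block 6 fell and 6 rose. Of the 18 genes past the test, FBL, NHP2, TCOF1, PA2G4, UTP15, WDR75 and RRN3 stayed past it whichever library was left out, and the other 11 did not. The SGC-CBP30 libraries were also deeper than their controls, and the part of depth in these small changes was not tested.

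**Figure D1:**
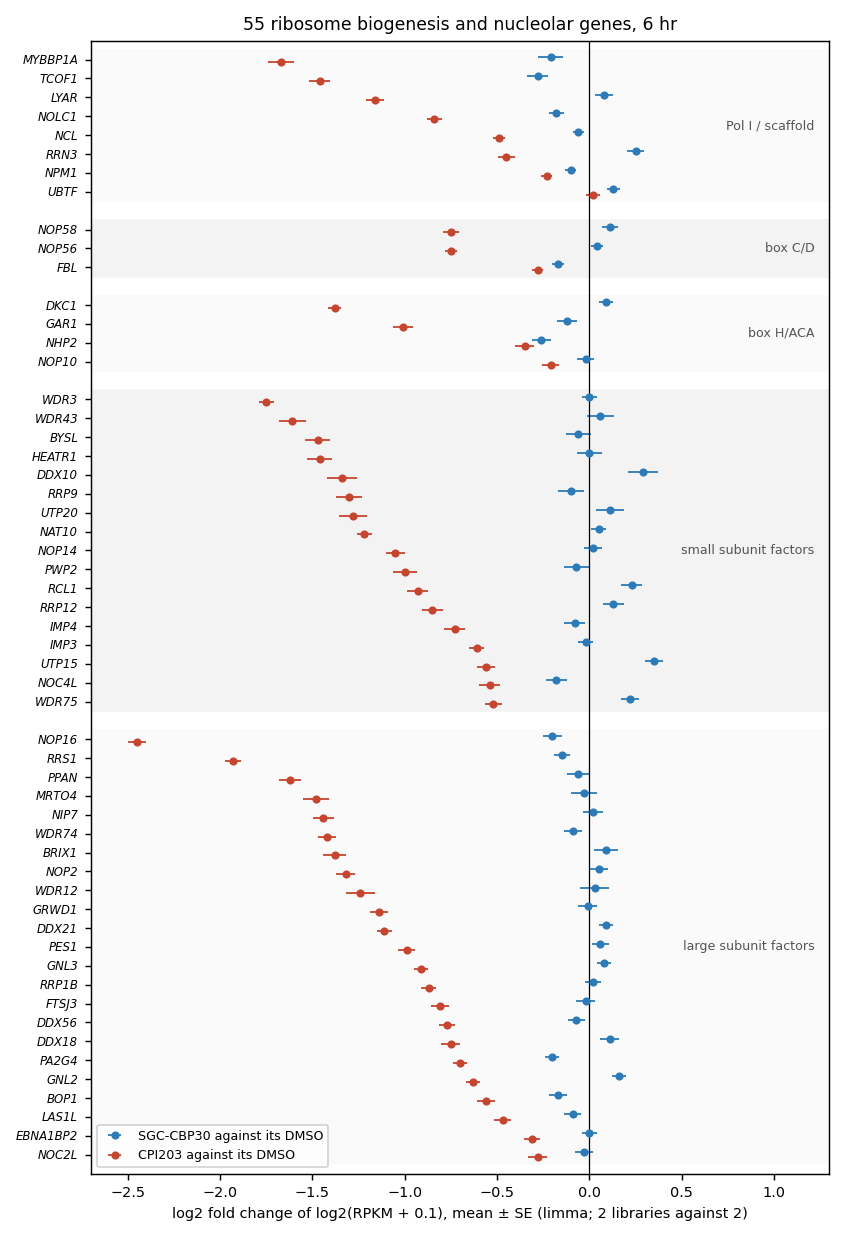
Log2 fold change (x axis, mean ± SE from limma) of each of the 55 genes (y axis, grouped by role and ordered by the CPI203 value) with SGC-CBP30 in blue and CPI203 in red, 2 libraries against 2. The CPI203 values run from -2.45 to 0.02 and the SGC-CBP30 values from -0.28 to 0.35, around the line at 0.

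The effects of the compounds at these doses were compared directly, as the CPI203 effect minus the SGC-CBP30 effect. It was negative at an adjusted p under 0.05 for 52 of the 55 genes and positive for none, beside 29.3% and 21.0% of all genes tested. With at least a 1.5-fold difference, 43 were negative and none positive, beside 14.8% and 9.68%. The median difference was -0.98 on the log2 scale, and -0.06 over all genes tested. It was not past the threshold for NHP2 (-0.09, 95% interval -0.25 to 0.06), FBL (-0.12, -0.22 to -0.02, adjusted p = 0.0501) and UBTF (-0.11, -0.22 to 0.01). The largest differences were those of NOP16 (-2.26 ± 0.072, limma adjusted p = 1.10e-07), RRS1 (-1.78 ± 0.063, 1.19e-07) and WDR3 (-1.75 ± 0.058, 1.19e-07), each with its SE. Across the 55 genes the order of the CPI203 values bore little relation to that of the SGC-CBP30 values, with a Spearman rho of 0.06 (0.34 over all genes tested), given as a description because genes of the same libraries are not independent. A single exact permutation test of 2 libraries against 2 cannot give a two-sided p below 0.333, so all calls rest on the spread that limma pools over genes.

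Levels in the DMSO libraries also differed between the 2 naming series. The log2 difference between the CPI203 controls and the SGC-CBP30 controls ran from -0.41 (MYBBP1A) to 0.26 (GNL3) over the 55 genes, with a median of -0.04. That range is about as wide as the range of the SGC-CBP30 effects.

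**Figure D2:**
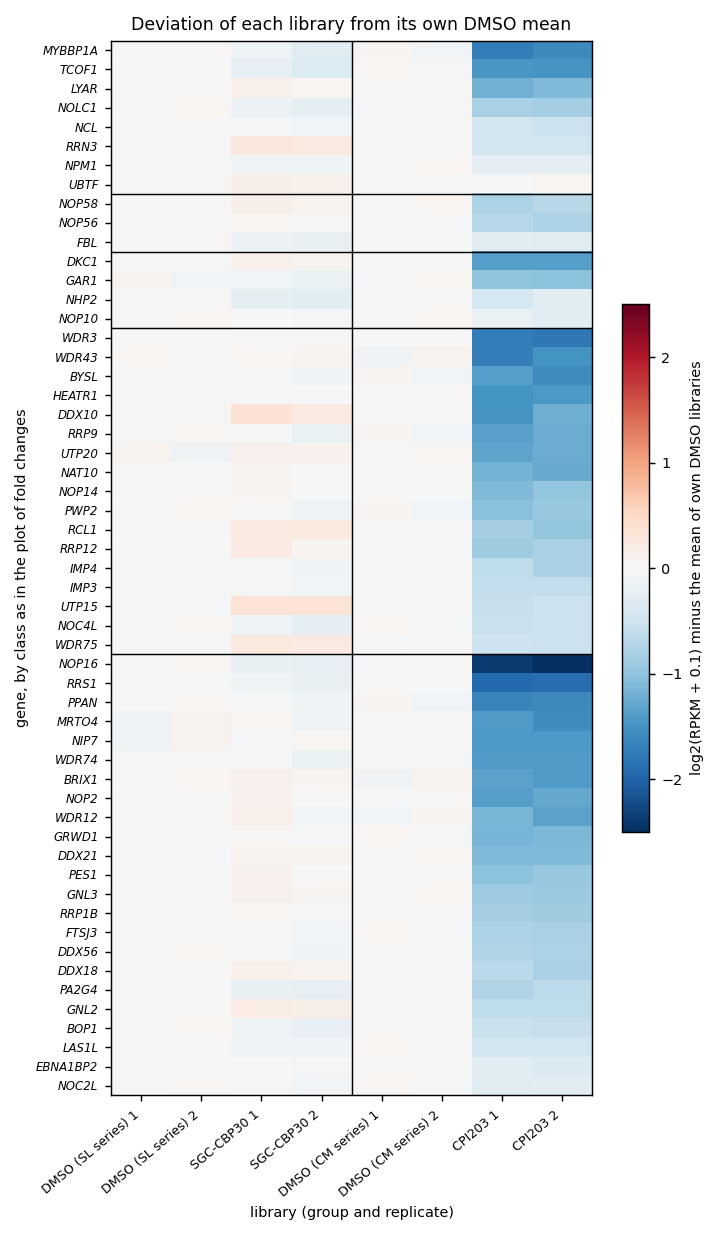
Each cell is the log2(RPKM + 0.1) of a gene (rows, in the same order and classes as the plot of fold changes) in 1 library (columns, group and replicate) minus the mean of its own DMSO libraries, blue for lower and red for higher. The CPI203 columns are below 0 in 54 of the 55 rows in both replicates, some of them pale, such as NOP10 at -0.16 and -0.26. The SGC-CBP30 columns are pale, with values from -0.35 to 0.36.

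Of the 8 RNA polymerase I cofactors and nucleolar scaffold proteins, 7 fell with CPI203, 4 of them by at least 1.5-fold, with a class median of -0.66. With SGC-CBP30, 4 fell and 2 rose, none by 1.5-fold, beside 14.8% of all genes tested that fell and 25.6% that rose. The most abundant were nucleolin and nucleophosmin, which bind nascent pre-rRNA and chaperone histones and ribosomal proteins. The RPKM of NCL was 669 and 689 in the CPI203 controls, 496 and 471 with CPI203, 670 and 680 in the SGC-CBP30 controls and 653 and 644 with SGC-CBP30. The CPI203 libraries were the lowest, and the log2 fold change was -0.49 ± 0.031 with CPI203 (limma adjusted p = 6.63e-07) and -0.06 ± 0.031 with SGC-CBP30 (adjusted p = 0.161).

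NPM1 stood at 515 and 509 RPKM in the SGC-CBP30 controls, 480 and 473 with SGC-CBP30, 575 and 607 in the CPI203 controls and 502 and 503 with CPI203. NPM1 fell with both compounds, by 0.23 on the log2 scale with CPI203 and by 0.10 with SGC-CBP30, and each pair of treated libraries lay below its own controls. The SGC-CBP30 call held under 9 of 18 alternative fits, was lost without any 1 library of the SL series, and the value turned to 0.05 after quantile normalization. Some of the 18 fits leave out a CPI203 library or 1 of its controls, which enter the SGC-CBP30 comparison only through the estimate of spread. Such fits lost 0 of the SGC-CBP30 calls, so these numbers of fits do not count independent checks. The 45 rows named as pseudogenes of NPM1 held 793 RPKM in the CPI203 controls and 688 with CPI203 on average. Summed with them, the log2 ratio was -0.22 with CPI203 and -0.06 with SGC-CBP30, beside -0.23 and -0.10 for NPM1 alone.

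UBTF and RRN3 bring RNA polymerase I to the rRNA genes, UBTF as the factor bound along the rRNA genes and RRN3 as the factor that makes the polymerase competent to start. With CPI203, UBTF was at 79.4 and 82.2 RPKM against 80 and 78.9 in its controls, and with SGC-CBP30 at 96.6 and 95.4 against 86.4 and 88.9. The CPI203 libraries overlapped their controls, and UBTF was the only gene of the 55 that did not fall with CPI203 (0.02 ± 0.036, 95% interval -0.06 to 0.10). With SGC-CBP30 it rose by 0.13 ± 0.036 (limma adjusted p = 0.0163), a call that held under 11 of 18 alternative fits. RRN3 was at 27.4 and 28.1 RPKM in the CPI203 controls and at 20.3 and 20.2 with CPI203, and at 24.8 and 25 in the SGC-CBP30 controls and 29.8 and 29.3 with SGC-CBP30. RRN3 thus moved in opposite directions against these controls, -0.45 ± 0.045 with CPI203 and 0.25 ± 0.045 with SGC-CBP30 (limma adjusted p = 1.41e-05 and 0.00238). The SGC-CBP30 call of RRN3 held under 16 of 18 alternative fits. It was lost against the CPI203 controls and against all 4 DMSO libraries. Its 3 pseudogene rows held 10.4 RPKM in the CPI203 controls, and with them the log2 ratios were -0.45 and 0.22.

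MYBBP1A, a nucleolar partner of MYB and of pre-rRNA processing, and TCOF1, the treacle protein of rRNA transcription that is altered in Treacher Collins syndrome, fell most in this class. The RPKM of MYBBP1A was 77 and 70.6 in the CPI203 controls, 22.2 and 24.2 with CPI203, 96.5 and 99.3 in the SGC-CBP30 controls and 90.1 and 79.2 with SGC-CBP30. The log2 fold change was -1.67 ± 0.069 with CPI203 and -0.21 ± 0.069 with SGC-CBP30. TCOF1 stood at 49.4 and 49.4 RPKM in the SGC-CBP30 controls, 42.7 and 38.7 with SGC-CBP30, 38.7 and 36.5 in the CPI203 controls and 13.7 and 13.6 with CPI203. For TCOF1 it was -1.46 ± 0.056 and -0.28 ± 0.056 (limma adjusted p = 3.75e-08 and 0.00368), the latter the largest fall of any of the 55 genes with SGC-CBP30. For both genes the CPI203 controls were below the SGC-CBP30 controls, and set against the CPI203 controls instead, the SGC-CBP30 values of MYBBP1A and TCOF1 were 0.20 and 0.11. LYAR, a nucleolar zinc finger protein, had log2 fold changes of -1.16 ± 0.050 with CPI203 and 0.08 ± 0.050 with SGC-CBP30 (not past the test), and NOLC1, the snoRNP chaperone Nopp140, fell with both (-0.84 ± 0.041 and -0.18 ± 0.041). The SGC-CBP30 call held under 12 of 18 alternative fits for NOLC1, 9 for MYBBP1A and 16 for TCOF1. All these calls were lost against the CPI203 controls and against all 4 DMSO libraries.

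**Figure D3:**
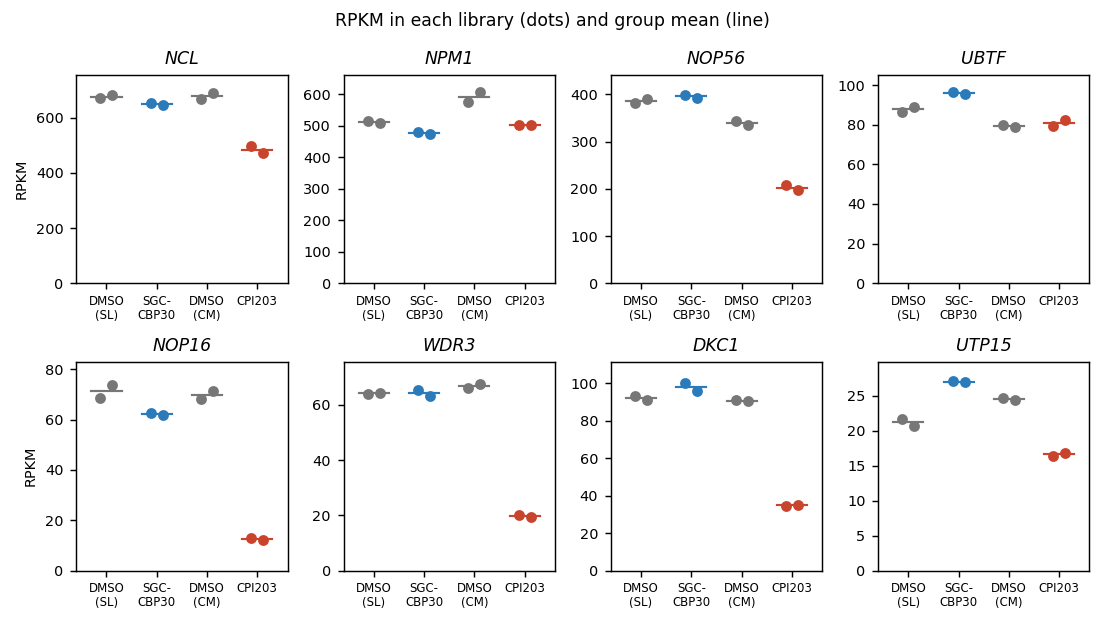
RPKM (y axis, from 0) of 8 genes in each of the 8 libraries (dots) with the group mean (line), for the SL series of DMSO and SGC-CBP30 and the CM series of DMSO and CPI203. NOP16, WDR3 and DKC1 drop to 12.7, 19.9 and 34.8 RPKM with CPI203, NPM1 falls little, UBTF does not fall, and UTP15 is highest with SGC-CBP30.

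The 3 box C/D core proteins all fell with CPI203, 2 of them by at least 1.5-fold. FBL, fibrillarin, is the methyltransferase of these particles, and NOP56 and NOP58 are its paired scaffold proteins. With CPI203, NOP56 was at 207 and 197 RPKM against 344 and 335 in its controls, and with SGC-CBP30 at 399 and 393 against 381 and 389. NOP56, the most abundant of the 55 genes after NCL and NPM1, fell by 0.75 on the log2 scale with CPI203 (limma adjusted p = 7.23e-08), with 0.04 ± 0.032 for SGC-CBP30 (adjusted p = 0.358). NOP58 had -0.75 ± 0.044 and 0.11 ± 0.044. FBL was at 205 and 205 RPKM in the CPI203 controls and at 172 and 165 with CPI203, and at 244 and 252 in the SGC-CBP30 controls and 223 and 219 with SGC-CBP30. FBL fell less, -0.28 ± 0.031 with CPI203, and fell by 0.17 with SGC-CBP30. Set against the CPI203 controls its SGC-CBP30 value was 0.11, since its CPI203 controls stood at 205 RPKM and its SGC-CBP30 controls at 248 RPKM on average.

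The 4 box H/ACA core proteins separated into a pair that fell by at least 2-fold and a pair that fell by less than 1.5-fold. DKC1, dyskerin, is the pseudouridine synthase and also a component of telomerase. The RPKM of DKC1 was 91 and 90.4 in the CPI203 controls, 34.7 and 34.8 with CPI203, 93.2 and 90.9 in the SGC-CBP30 controls and 100 and 95.9 with SGC-CBP30. DKC1 changed by -1.38 ± 0.037 on the log2 scale with CPI203 (limma adjusted p = 4.41e-09) and 0.09 ± 0.037 with SGC-CBP30 (adjusted p = 0.0783). GAR1 followed with -1.01 ± 0.055 and -0.12 ± 0.055 (the latter not past the test). NHP2 stood at 126 and 132 RPKM in the SGC-CBP30 controls, 109 and 107 with SGC-CBP30, 130 and 130 in the CPI203 controls and 96.7 and 108 with CPI203. NHP2 fell with both compounds, -0.35 ± 0.050 with CPI203 and -0.26 ± 0.050 with SGC-CBP30. Its 2 pseudogene rows held 96.3 RPKM in the CPI203 controls and 96.1 RPKM in the SGC-CBP30 controls, and the log2 ratios with them were -0.33 and -0.23. The fourth protein, NOP10, had -0.21 ± 0.046 and -0.02 ± 0.046, past the test with CPI203 only.

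The small subunit processome is the large assembly that forms on the nascent precursor around the U3 snoRNA. All 17 factors of the small subunit fell with CPI203, 14 by at least 1.5-fold and 9 by at least 2-fold, with a median of -1.05. With SGC-CBP30, 4 rose, 1 fell and 12 did not pass, beside 25.6% of all genes tested that rose and 14.8% that fell. WDR3, the beta-propeller protein also called UTP12 (hg19 chr1:118472342-118503049), fell most. With CPI203, WDR3 was at 20.3 and 19.5 RPKM against 66.3 and 67.6 in its controls, and with SGC-CBP30 at 65.4 and 63.1 against 64.1 and 64.2. The 6 libraries without CPI203 lay between 63.1 and 67.6 RPKM with the CPI203 libraries far below them, a log2 fold change of -1.75 ± 0.041 (limma adjusted p = 2.46e-09) beside 0.00 ± 0.041 with SGC-CBP30. UTP20 was at 13 and 13.9 RPKM in the CPI203 controls and at 5.32 and 5.61 with CPI203, and at 13.1 and 11.6 in the SGC-CBP30 controls and 13.3 and 13.3 with SGC-CBP30. UTP20, a very long repeat protein of the processome, fell by 1.28 on the log2 scale with CPI203, with 0.11 ± 0.076 for SGC-CBP30 (adjusted p = 0.295).

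The 4 small subunit factors that rose with SGC-CBP30 were UTP15, DDX10, RCL1 and WDR75, and each fell with CPI203. UTP15 and WDR75 belong to the subcomplex that links transcription with early processing, DDX10 is an RNA helicase and RCL1 a protein of the processome. UTP15 lies at hg19 chr5:72861267-72877794. The RPKM of UTP15 was 24.7 and 24.4 in the CPI203 controls, 16.4 and 16.8 with CPI203, 21.7 and 20.7 in the SGC-CBP30 controls and 27.1 and 26.9 with SGC-CBP30. Both SGC-CBP30 libraries of UTP15 were above all others, a log2 fold change of 0.35 ± 0.049 (limma adjusted p = 6.21e-04) beside -0.56 ± 0.049 with CPI203. DDX10 stood at 29 and 30.3 RPKM in the SGC-CBP30 controls, 38.1 and 34.5 with SGC-CBP30, 32.2 and 31.7 in the CPI203 controls and 11.5 and 13.7 with CPI203. For DDX10 the log2 fold changes were 0.29 ± 0.080 with SGC-CBP30 and -1.34 ± 0.080 with CPI203. With CPI203, RCL1 was at 10.9 and 10.1 RPKM against 19.9 and 20.3 in its controls, and with SGC-CBP30 at 23.4 and 23.8 against 20.4 and 19.7. RCL1 had 0.23 ± 0.057 and -0.93 ± 0.057. WDR75 was at 26.4 and 26.9 RPKM in the CPI203 controls and at 18.7 and 18.5 with CPI203, and at 24.3 and 23.7 in the SGC-CBP30 controls and 28.4 and 27.6 with SGC-CBP30. WDR75 had 0.22 ± 0.047 and -0.52 ± 0.047, and none of the 4 reached 1.5-fold with SGC-CBP30. Of 18 alternative fits, the SGC-CBP30 call held under 17 for UTP15, 10 for DDX10, 15 for RCL1 and 16 for WDR75. Against all 4 DMSO libraries only the call of RCL1 held. NOC4L, a partner of NOP14, was the only small subunit factor that fell with SGC-CBP30 (-0.18 ± 0.057, adjusted p = 0.0348), and it had -0.54 ± 0.057 with CPI203. Set against the CPI203 controls, the SGC-CBP30 value of NOC4L was 0.13, and its call held under 10 of 18 alternative fits.

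The other 10 small subunit factors fell with CPI203 and did not pass with SGC-CBP30, where they ranged from -0.10 (RRP9) to 0.13 (RRP12). WDR43, a scaffold of early processing, had a CPI203 log2 fold change of -1.61, the assembly factor BYSL -1.47, the repeat protein HEATR1 -1.46 and the U3 snoRNP protein RRP9 -1.30. NAT10, which acetylates cytidines of the small subunit rRNA, had -1.22, NOP14 -1.05 and the export factor RRP12 -0.85. The beta-propeller protein PWP2 fell to 0.499 of its control level. IMP4 and IMP3, small proteins of the U3 snoRNP, fell less, with -0.73 and -0.61.

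All 23 factors of the large subunit fell with CPI203, 19 by at least 1.5-fold and 11 by at least 2-fold, with a median of -0.99. With SGC-CBP30, 4 fell, 1 rose and 18 did not pass, beside 14.8% of all genes tested that fell and 25.6% that rose. The largest fall among the 55 genes was that of NOP16, an early factor of the large subunit (hg19 chr5:175810948-175815976). The RPKM of NOP16 was 68.2 and 71.4 in the CPI203 controls, 13.1 and 12.3 with CPI203, 68.8 and 73.8 in the SGC-CBP30 controls and 62.7 and 61.8 with SGC-CBP30. The CPI203 libraries held 0.182 of the control level, a log2 fold change of -2.45 ± 0.051 (limma adjusted p = 1.24e-09), while the SGC-CBP30 libraries lay slightly below their controls, -0.20 ± 0.051 (adjusted p = 0.0137). RRS1 stood at 66.1 and 63.8 RPKM in the SGC-CBP30 controls, 60.5 and 56.8 with SGC-CBP30, 64.6 and 64.1 in the CPI203 controls and 16.7 and 17 with CPI203. RRS1, a regulator of large subunit assembly, fell by 1.93 on the log2 scale with CPI203 and by 0.15 with SGC-CBP30. The SGC-CBP30 call held under 11 of 18 alternative fits for RRS1 and 13 for NOP16. Both calls were lost against all 4 DMSO libraries. With CPI203, PPAN was at 14.7 and 15.2 RPKM against 48.6 and 44 in its controls, and with SGC-CBP30 at 54.3 and 51.1 against 53.4 and 56.6. PPAN, a factor of early large subunit particles, had -1.62 ± 0.059 and -0.06 ± 0.059, the latter not past the test (adjusted p = 0.443).

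PES1, BOP1 and WDR12 form the PeBoW complex, which is needed for cutting of the precursor between the rRNAs of the large subunit. PES1 was at 69.1 and 68.8 RPKM in the CPI203 controls and at 33.7 and 35.6 with CPI203, and at 75.2 and 74.9 in the SGC-CBP30 controls and 81 and 75.4 with SGC-CBP30. The RPKM of BOP1 was 42.5 and 41.7 in the CPI203 controls, 28.6 and 28.3 with CPI203, 48.5 and 51.1 in the SGC-CBP30 controls and 45.6 and 43 with SGC-CBP30. The CPI203 log2 fold changes were -1.24 ± 0.079 for WDR12, -0.99 ± 0.046 for PES1 and -0.56 ± 0.047 for BOP1, so that BOP1 alone stayed under 1.5-fold. With SGC-CBP30, BOP1 fell by 0.17 (limma adjusted p = 0.0182), while WDR12 and PES1 had 0.03 ± 0.079 and 0.06 ± 0.046 and did not pass. The BOP1 value was 0.07 against the CPI203 controls, and its call held under 12 of 18 alternative fits. PA2G4, the growth-regulated protein EBP1 found on large subunit particles, fell with both. PA2G4 stood at 113 and 114 RPKM in the SGC-CBP30 controls, 99.4 and 98.4 with SGC-CBP30, 111 and 111 in the CPI203 controls and 65.8 and 70.3 with CPI203. The changes on the log2 scale were -0.70 ± 0.038 and -0.20 ± 0.038. Its 4 pseudogene rows held 115 RPKM in the CPI203 controls and 118 RPKM in the SGC-CBP30 controls on average, and the log2 ratios with them were -0.72 and -0.18. GNL2, a nucleolar GTPase, was the only large subunit factor that rose with SGC-CBP30 (0.16 ± 0.037, adjusted p = 0.00789), and it had -0.63 with CPI203. The SGC-CBP30 call of GNL2 held under 14 of 18 alternative fits. It was lost against the CPI203 controls, against all 4 DMSO libraries, after median scaling and without SGC-CBP30 replicate 1.

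The other 15 large subunit factors fell with CPI203 and did not pass with SGC-CBP30, where they ranged from -0.09 to 0.11. MRTO4, a placeholder for a stalk protein, had a CPI203 log2 fold change of -1.48, NIP7 -1.44, WDR74 -1.42, BRIX1 -1.38 and the rRNA methyltransferase NOP2 -1.32. GRWD1, a ribosomal protein chaperone, had -1.14, the helicase DDX21 -1.11 and GNL3, nucleostemin, -0.91. RRP1B had -0.87, the methyltransferase FTSJ3 -0.81 and the helicases DDX56 and DDX18 -0.77 and -0.75. The smallest falls were those of LAS1L, a subunit of the complex that cuts the spacer between large subunit rRNAs (-0.47), EBNA1BP2 (-0.31) and NOC2L (-0.28).

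The genes just inside and outside 1.5-fold, a log2 fold change of 0.585 in size, were IMP3 at -0.61 and BOP1 and UTP15 at -0.56 with CPI203. In abundance the 55 genes spanned 11.7 RPKM (HEATR1) to 679 RPKM (NCL) in the CPI203 controls. The CPI203 log2 fold change, with its sign, had a Spearman rho of 0.20 with that level over the 55 genes, and -0.12 over all genes tested. A positive value means smaller falls at higher levels. The most abundant genes, NCL, NPM1 and NOP56, had -0.49, -0.23 and -0.75, smaller falls than the median of -0.93. DDX21, at 144 RPKM in the CPI203 controls, fell more, with -1.11. The 17 genes with CACGTG in the promoter window had a median CPI203 log2 fold change of -1.05 (range -1.67 to -0.21) and 14 fell by at least 1.5-fold. The 30 with a window but no CACGTG had a median of -0.86 (range -2.45 to 0.02) and 20 did so. The ends of these ranges were MYBBP1A at -1.67 and NOP10 at -0.21 with CACGTG, and NOP16 at -2.45 and UBTF at 0.02 without it. The part of CACGTG in these changes was not tested. MYC itself stood at 247 and 240 RPKM in the CPI203 controls and at 31.5 and 30.9 with CPI203, and at 281 and 296 in the SGC-CBP30 controls and 217 and 193 with SGC-CBP30, and its part in these changes was not tested.

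Most of the wider pathway also fell with CPI203. Of 112 other ribosome biogenesis genes listed, 111 were tested. With CPI203, 95 fell and 5 rose at an adjusted p under 0.05, beside 33.1% and 31.1% of all genes tested. By at least 1.5-fold, 54 fell and none rose, beside 14.4% and 13.4%, and the median was -0.56. With SGC-CBP30, 8 fell and 34 rose, beside 14.8% of all genes tested that fell and 25.6% that rose. None changed by 1.5-fold, and the median was 0.07, the same as over all genes tested. The largest falls were those of POLR1G (CD3EAP in the deposited annotation) and POLR1B, subunits of RNA polymerase I, and NLE1, a notchless-family factor of the large subunit. With CPI203, POLR1G was at 3.84 and 4.26 RPKM against 19.7 and 17.9 in its controls, and with SGC-CBP30 at 23.2 and 21.2 against 21.3 and 22.7. POLR1B was at 22.1 and 19.9 RPKM in the CPI203 controls and at 4.8 and 5.61 with CPI203, and at 19.5 and 19.1 in the SGC-CBP30 controls and 20.3 and 20.2 with SGC-CBP30. The RPKM of NLE1 was 13 and 11.3 in the CPI203 controls, 3.5 and 2.93 with CPI203, 14.6 and 15.2 in the SGC-CBP30 controls and 13.2 and 11 with SGC-CBP30. In each the CPI203 libraries were well below all the others, with log2 fold changes of -2.19 ± 0.079, -1.99 ± 0.081 and -1.89 ± 0.114, and none of the 3 passed with SGC-CBP30. By class, the CPI203 median was -0.61 over 13 RNA polymerase I genes (6 called at 1.5-fold), -0.58 over 42 other small subunit factors (21), -0.75 over 41 other large subunit factors (22) and -0.37 over 15 genes of the RNA exosome and rRNA trimming (5).

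The 79 cytosolic ribosomal protein genes tested, which encode the ribosome's own proteins, changed little. With CPI203, 13 fell, 2 rose and 64 did not pass, beside 33.1% of all genes tested that fell and 31.1% that rose. None changed by 1.5-fold, and the median was -0.04, beside -0.01 over all genes tested. Their summed RPKM was 26630 ± 296 in the CPI203 controls and 25958 ± 407 with CPI203 (mean ± SD, n = 2 each), 0.975 of the control, beside 0.617 for the 55 genes. With SGC-CBP30, 29 fell and 4 rose, beside 14.8% of all genes tested that fell and 25.6% that rose. None changed by 1.5-fold, the median was -0.08, beside 0.07 over all genes tested, and the summed RPKM was 0.943 of its control. Some ribosomal protein genes differed widely between the SGC-CBP30 controls and the CPI203 controls. Mean RPKM in these was 11.4 and 38.3 for RPS26, 157 and 432 for RPS3A and 189 and 345 for RPS2. The sums over the list, 26170 and 26630, were close.

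**Figure D4:**
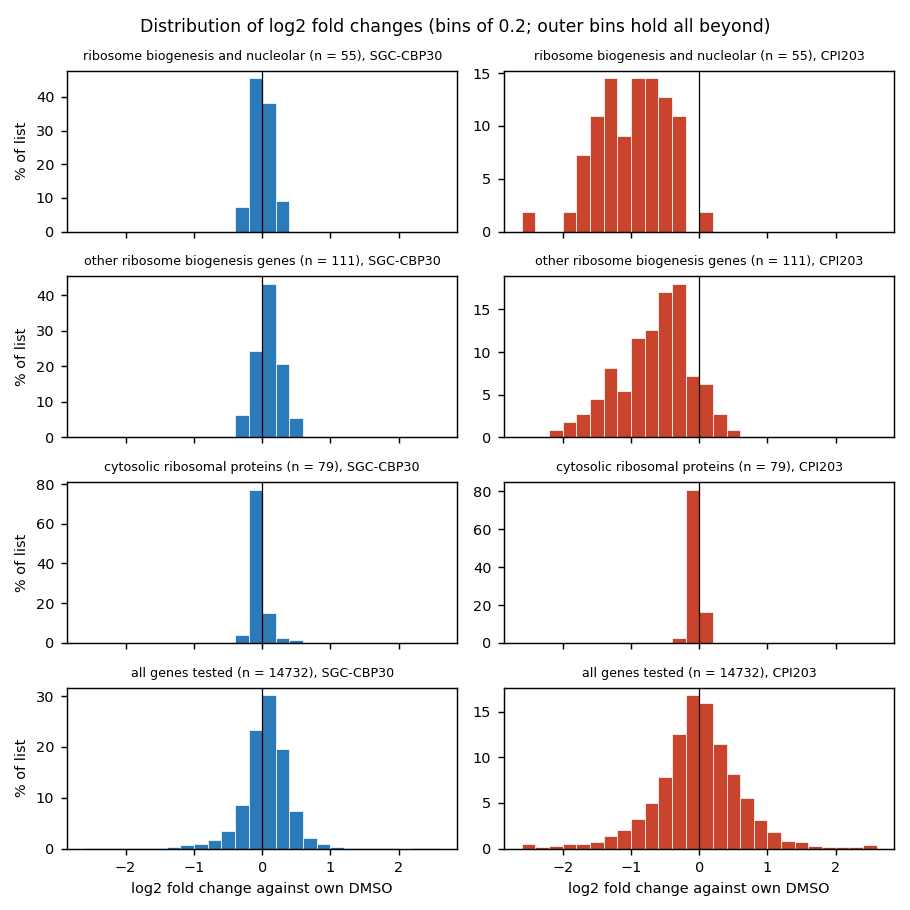
Share of each list (y axis, % of its genes) by log2 fold change (x axis, bins of 0.2) with SGC-CBP30 (left, blue) and CPI203 (right, red), for the 55 genes, 111 other ribosome biogenesis genes, 79 cytosolic ribosomal proteins and all 14732 genes tested. With CPI203 the first list has a median of -0.93, the second of -0.56 and the ribosomal proteins of -0.04.

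Some values are uncertain because genes share positions or sequence. On the deposited hg19 positions, 18 of the 55 genes overlap another gene of at least 1 RPKM, among them NOP16 with HIGD2A, PPAN with P2RY11, MYBBP1A with SPNS2, UTP15 with ANKRA2, RRN3 with PDXDC1, PES1 with TCN2 and NOP14 with its antisense NOP14-AS1. Whether strand was used in counting is not given in the sources used here. Rows named as pseudogenes exist for 9 of the 55. Within groups the replicates were close: the SD of the log2 difference between replicates over the 55 genes was 0.0635 in the SGC-CBP30 controls, 0.0529 with SGC-CBP30, 0.0743 in the CPI203 controls and 0.0926 with CPI203.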

How the data were processed

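RNA-seq of 8 LP-1 libraries was analysed. The authors deposited 1 RPKM value per gene and library, made by a sequencing provider, and the submitters' processing notes name TopHat 1.4.1, Cufflinks and hg19. The annotation release is not given in the sources used here. Cufflinks shares reads of overlapping or similar genes by a model, and RPKM is relative to the library total, so a change in total RNA per cell is not seen. Of the deposited columns, 24 belong to samples outside this series and were not used.

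Of 63129 rows, 27 with a missing value were left out, and 14732 genes that averaged 1 RPKM or more over the 8 libraries were tested. Values were not rescaled, and a pseudocount of 0.1 was added before taking log2. Group means of all 4 groups were estimated jointly with limma 3.58.1 (R 4.3.3), whose moderated test let the variance follow the mean level (4 residual and 5.5 prior degrees of freedom). Calls required an adjusted p under 0.05 (Benjamini-Hochberg) and, where stated, a 1.5-fold change. Errors of log2 fold changes are SE. The fit was tested on simulated data. The members and the gene lists were chosen with earlier results of these data known.

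Values in every library are given for NCL, NPM1, FBL, NOP56, DKC1, UTP20, BOP1, PES1, UBTF and RRN3, for the 5 largest falls and rises called with CPI203, the 5 largest falls and rises at adjusted p under 0.05 with SGC-CBP30, the 3 largest differences between the compounds, and the 3 largest falls and rises called among the other ribosome biogenesis genes. Depth was estimated from genes whose RPKM under 0.5 falls on whole reads, within 0.1 of a read for 58.7% to 71.5% of values. Promoters are from RefSeq, GRCh38.p14. Tables and figures were made in Python 3.11.15 (numpy 2.4.6, pandas 2.3.3, matplotlib 3.10.9). Alternatives were another pseudocount, filter, scaling, choice of DMSO libraries, fit and threshold, a replicate block, and each library left out in turn.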

Additional observations from a re-analysis of the deposited data

How the results depend on the processing

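With CPI203, 41 members fell by at least 1.5-fold whichever library was left out (41 to 41), 40 to 42 under every other alternative run except the fold threshold, and 25 at 2-fold. The CPI203 effect minus the SGC-CBP30 effect was negative by at least 1.5-fold for 43 members, for 42 to 43 with a library left out and for 26 at 2-fold, and with the DMSO pairs exchanged 1 member was positive past the adjusted p. The SGC-CBP30 counts moved. The 11 members that fell became 7 against the DMSO pair of the other naming series, 2 against all 4 DMSO libraries and 4 with no filter. They became 7 without the intensity trend, 6 after quantile normalization, and 4 to 11 with a library left out. The 7 that rose became 15 against the DMSO pair of the other naming series and 1 against all 4. They became 3 after median scaling, 12 after quantile normalization, and 4 to 7 with a library left out. Against the DMSO pair of the other naming series, the genes counted were only in part the same as in the main fit. The calls of FBL, BOP1, NOLC1, NOC4L, TCOF1 and MYBBP1A as falls were lost there. Those of GNL2, DDX10, WDR75 and RRN3 as rises were lost too. With no minimum fold the SGC-CBP30 counts at 1.5-fold, both 0, became 11 lower and 7 higher. Of the 18 members past the test with SGC-CBP30, only NHP2 stayed past it in the same direction under all 18 alternative fits. The fits without a CPI203 library or 1 of its controls, which bear on these calls only through the estimate of spread, lost 0 of them. Without DMSO (SL series) replicate 1 the test was lost by 6 (NPM1, RRS1, NOC4L, DDX10, MYBBP1A and UBTF, log2 fold changes from -0.23 to 0.26), without replicate 2 by 9 (NPM1, NOP16, RRS1, BOP1, NOLC1, NOC4L, RCL1, DDX10 and MYBBP1A, from -0.19 to 0.32), without SGC-CBP30 replicate 1 by 5 (NPM1, NOP16, GNL2, DDX10 and UBTF, from -0.21 to 0.22) and without its replicate 2 by 9 (NPM1, NOP16, RRS1, BOP1, NOLC1, NOC4L, RCL1, MYBBP1A and UBTF, from -0.19 to 0.22). Ribosomal proteins lower by 1.5-fold with SGC-CBP30 went from 0 to 3 against the DMSO pair of the other naming series. The cause of these moves was not tested.

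Against the DMSO pair of the other naming series the SGC-CBP30 log2 fold change turned to 0.11 for FBL, 0.07 for BOP1 and -0.18 for GNL3. It turned to 0.13 for NOC4L, 0.19 for PPAN, 0.11 for TCOF1, 0.14 for GRWD1, 0.21 for BYSL, 0.20 for MYBBP1A and 0.23 for PWP2. The CPI203 value of UBTF turned to -0.12. After quantile normalization the SGC-CBP30 value of NPM1 was 0.05. With the replicate number as a block (replicate block), 41 members fell by 1.5-fold with CPI203, and with SGC-CBP30 6 fell and 6 rose. Deviations of same-numbered libraries correlated at -0.0963 (SGC-CBP30 and its controls) and 0.00863 (CPI203 and its controls) over 14732 genes. With 2 libraries a group, these values cannot show whether same-numbered libraries shared an effect or were paired. The study calls the DMSO controls paired, without saying in the sources used here which library goes with which. Depth is an estimate from whole-read steps, so no counting interval is given, and all p-values rest on 2 libraries a group.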
